A study of Mus musculus with 2 samples.

Results

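The 10 genes Bnip3l, Ulk1, Gabarapl2, Trim58, Xpo7, Foxo3, Ube2o, Alox15, Hemgn and Mxi1 act late in red cell formation, when the maturing cell loses its nucleus, mitochondria and ribosomes. They were chosen by name from known roles, with earlier results of these data known. They are 10 of the 21938 protein-coding genes of the annotation. For each gene the accessible chromatin was collected at its promoters (within 500 bp of any annotated transcription start site, TSS), inside the gene, and up to 50 kb either side of it. The assay was DNase-seq, which sequences the ends that the enzyme DNase I makes where it can reach DNA in nuclei. Short stretches protected inside an open region are called footprints.

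Both libraries came from whole spleen of male B6CASTF1/J mice aged 10 days, an F1 cross between C57BL/6 and CAST/EiJ, with no treatment stated. They are biological replicates 1 and 2 of 1 group, and the labels give them a shared donor identifier. No condition was compared, and each value is given per library. Spleen is a mixture of cells, so a low signal from few cells and a low signal in each cell cannot be told apart.

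The maturing red cell expels a condensed nucleus, and it clears its organelles by autophagy and its proteins by ubiquitination. BNIP3L, also called NIX, marks mitochondria for engulfment, ULK1 is the kinase that starts autophagy, and GABARAPL2 is a ubiquitin-like protein of the forming membrane. TRIM58 is a ubiquitin ligase that acts on dynein during enucleation, XPO7 is a nuclear export receptor, UBE2O ubiquitinates ribosomal proteins, and ALOX15 oxidises lipids of organelle membranes. FOXO3 and HEMGN are nuclear regulators of erythroid genes, and MXI1 pairs with MAX and opposes MYC. The young mouse spleen is itself a site of red cell formation.

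The sequences that carry the main observations are shown first, from the mm10 reference and 5′ to 3′. Capitals mark bases inside a footprint of both libraries. The promoter sequences are the 150 bases before a TSS on the strand of the gene. Ulk1 and Bnip3l had the strongest promoters of the 10 genes, Ube2o lay mid-range, and Trim58 and Hemgn had 2 of the weaker promoters, with few CpG.
Ulk1 promoter, chr5:110810098-110810247, minus strand: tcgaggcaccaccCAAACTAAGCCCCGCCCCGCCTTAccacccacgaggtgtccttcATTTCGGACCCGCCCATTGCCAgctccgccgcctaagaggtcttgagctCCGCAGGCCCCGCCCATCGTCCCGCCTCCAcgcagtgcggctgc
Bnip3l promoter, chr14:67008878-67009027, minus strand: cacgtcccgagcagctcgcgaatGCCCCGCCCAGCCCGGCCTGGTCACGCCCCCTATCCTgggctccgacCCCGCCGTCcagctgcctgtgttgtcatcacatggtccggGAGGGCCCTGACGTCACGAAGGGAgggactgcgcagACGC
Ube2o promoter, chr11:116581448-116581597, minus strand: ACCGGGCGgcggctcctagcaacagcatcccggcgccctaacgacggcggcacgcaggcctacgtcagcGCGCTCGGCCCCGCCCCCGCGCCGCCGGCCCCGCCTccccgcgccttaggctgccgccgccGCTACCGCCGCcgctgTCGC
Trim58 promoter, chr11:58640315-58640464, plus strand: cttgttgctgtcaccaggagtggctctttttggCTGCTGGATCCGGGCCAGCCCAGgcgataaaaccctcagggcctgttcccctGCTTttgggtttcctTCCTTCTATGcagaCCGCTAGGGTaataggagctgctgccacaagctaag
Hemgn promoter, chr4:46404237-46404386, minus strand: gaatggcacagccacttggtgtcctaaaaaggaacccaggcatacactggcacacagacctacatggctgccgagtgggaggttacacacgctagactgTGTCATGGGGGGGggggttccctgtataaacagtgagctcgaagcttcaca
The Ulk1 stretch held 3 matches to the GC box GGGCGG on either strand, the Ube2o stretch 2 and the Bnip3l stretch 1, whereas the Trim58 and Hemgn stretches held none. The Bnip3l stretch also held TGACGTCA, the cyclic AMP response element, wholly in capitals. CpG dinucleotides numbered 28 in the Ube2o stretch, 15 in that of Bnip3l and 14 in that of Ulk1, against 3 each in those of Trim58 and Hemgn.

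The next sequences are windows of 200 bases centred on a site away from promoters. The Mxi1 and Trim58 introns and the site downstream of Alox15 are the strongest such sites inside or beside their gene. The sites in the Xpo7 intron, upstream of Bnip3l and downstream of Mxi1 were chosen after their values were seen, for a footprinted GATA match or for a relatively strong signal in replicate 2.
Mxi1 intron, chr19:53314231-53314430, plus strand: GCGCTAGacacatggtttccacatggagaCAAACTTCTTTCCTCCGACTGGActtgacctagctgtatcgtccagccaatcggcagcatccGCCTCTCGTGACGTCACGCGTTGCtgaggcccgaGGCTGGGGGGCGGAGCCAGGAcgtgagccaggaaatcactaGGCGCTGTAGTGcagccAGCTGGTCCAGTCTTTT
Trim58 intron, chr11:58643501-58643700, plus strand: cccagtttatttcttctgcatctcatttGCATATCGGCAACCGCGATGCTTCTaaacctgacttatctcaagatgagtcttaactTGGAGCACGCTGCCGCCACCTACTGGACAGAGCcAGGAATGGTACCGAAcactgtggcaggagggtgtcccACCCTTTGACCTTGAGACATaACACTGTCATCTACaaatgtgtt
Xpo7 intron, chr14:70713091-70713290, plus strand: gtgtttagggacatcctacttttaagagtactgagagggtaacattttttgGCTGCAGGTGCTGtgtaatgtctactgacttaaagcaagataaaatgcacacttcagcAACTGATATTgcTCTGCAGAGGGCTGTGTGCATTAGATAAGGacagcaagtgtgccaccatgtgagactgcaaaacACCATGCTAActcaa
Alox15 downstream, chr11:70334581-70334780, plus strand: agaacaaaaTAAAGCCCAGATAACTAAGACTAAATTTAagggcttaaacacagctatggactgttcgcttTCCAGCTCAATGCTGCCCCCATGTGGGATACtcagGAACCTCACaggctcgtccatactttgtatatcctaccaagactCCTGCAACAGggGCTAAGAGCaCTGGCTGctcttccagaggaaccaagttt
Bnip3l upstream, chr14:67012551-67012750, plus strand: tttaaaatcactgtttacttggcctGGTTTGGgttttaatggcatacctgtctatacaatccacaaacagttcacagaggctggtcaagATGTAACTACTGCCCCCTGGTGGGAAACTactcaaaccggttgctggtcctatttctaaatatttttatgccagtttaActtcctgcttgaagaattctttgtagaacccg
Mxi1 downstream, chr19:53394636-53394835, plus strand: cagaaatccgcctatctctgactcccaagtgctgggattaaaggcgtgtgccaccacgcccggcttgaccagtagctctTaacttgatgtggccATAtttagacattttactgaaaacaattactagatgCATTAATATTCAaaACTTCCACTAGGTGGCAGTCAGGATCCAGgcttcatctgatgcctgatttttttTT
In these 6 windows the capitals cover 104 bases at Mxi1, 107 at Trim58, 63 at Xpo7, 95 at Alox15, 37 upstream of Bnip3l and 47 downstream of Mxi1. None of the 6 windows touched an annotated coding or untranslated exon.

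Replicate 1 had 130476 peaks and replicate 2 had 95847, with 404781 and 276537 footprints. The deposited signal of a peak is a density scaled within each library, and its median over peaks was 0.578 in replicate 1 and 0.553 in replicate 2. Merging peaks that overlapped gave 146575 sites, and 73150 of them (49.9%) held a peak of both libraries. Read totals were not analysed here, so absolute depth is unknown. As a check of the tissue, all 6 red cell markers (Gata1, Klf1, Epor, Slc4a1, Hbb-bs and Tfrc) and all 5 B cell markers had a promoter peak in both libraries. Of the other markers, 1 of 4 T cell, 1 of 3 macrophage, 2 of 3 neutrophil, 2 of 3 stroma, 2 of 4 pancreas and 0 of 3 liver genes did. The markers Cd4, Spic, Adgre1, Elane, Prss2, Alb and Apoa2 had no promoter peak in either library. The 2 pancreas markers with a peak in both were Cela1 and Cpa1. Cela1 had signals of 4.96 in replicate 1 and 4.19 in replicate 2, and Cpa1 had 0.679 and 0.582.

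Each of the 10 genes had an accessible promoter in both libraries, whereas 60.7% of protein-coding genes did (67.7% in replicate 1 and 61.3% in replicate 2). The autophagy genes had the strongest promoters and Alox15 the weakest. The median promoter signal of the 10 genes was 9.62 in replicate 1 and 4.44 in replicate 2, against 8.54 and 3.55 for all genes with a promoter peak in both. The promoters of 5 genes, Ulk1, Bnip3l, Gabarapl2, Mxi1 and Ube2o, lay above the median gene in both libraries.

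**Figure D1:**
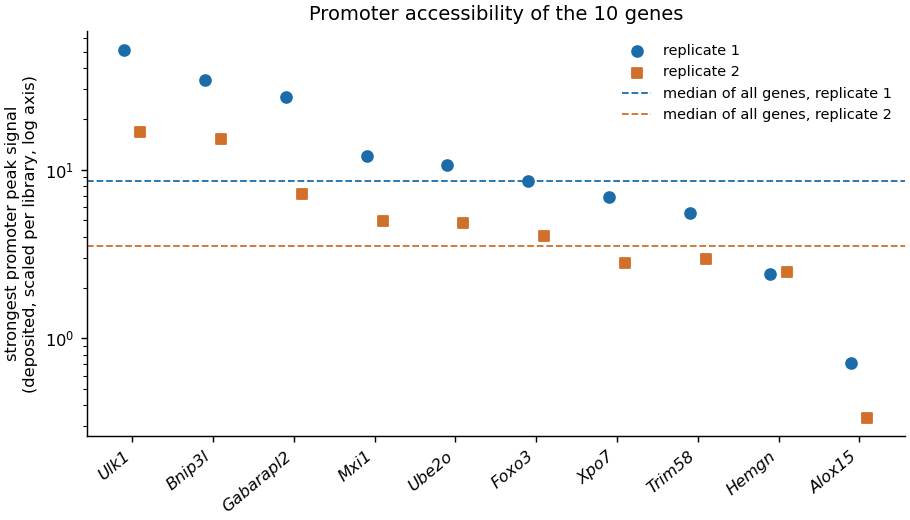
Signal of the strongest promoter peak of each gene in replicate 1 (circles) and replicate 2 (squares) on a log axis, with the median of all genes that had a promoter peak in both as dashed lines. Ulk1 and Bnip3l lie far above the dashed lines in both libraries, and Alox15 lies far below.

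The 3 mitophagy genes stood at the top in both libraries. The Ulk1 promoter reached 51.5 in replicate 1 and 16.7 in replicate 2, above 99.8% and 99.5% of genes with a promoter peak in both. Bnip3l had 34.1 and 15.3, at percentiles 97.5 and 99.0. Both promoters ranked among the most accessible of the genome in each library. Gabarapl2 had 27.1 and 7.22, at percentiles 93.0 and 79.1, so its standing was lower in replicate 2.

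The promoters of the regulators and of the ubiquitin enzyme lay in the middle of the genome's range. Mxi1 had signals of 12.0 in replicate 1 and 4.97 in replicate 2, at percentiles 61.6 and 62.5. Ube2o had 10.7 and 4.83, at percentiles 57.7 and 61.3. Foxo3 had 8.51 and 4.06, at percentiles 49.9 and 54.7, the closest of the 10 genes to the median gene. These 3 genes kept nearly the same standing in both libraries.

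The 2 genes of nuclear loss lay lower. Xpo7 had signals of 6.86 in replicate 1 and 2.78 in replicate 2, at percentiles 44.0 and 42.8. Trim58 had 5.51 and 2.96, at percentiles 38.7 and 44.5. The order of these 2 genes was exchanged between the libraries, and the other 8 genes held the same rank in each.

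Hemgn and Alox15 had the weakest promoters. Hemgn had signals of 2.39 in replicate 1 and 2.47 in replicate 2, at percentiles 23.4 and 39.7. It was the only one of the 10 genes whose strongest promoter peak was higher in replicate 2 as deposited. Over all sites in both, of which most lay outside promoters, 9.44% were higher in replicate 2. The share over promoters alone was not counted. Alox15 had 0.716 and 0.339, at percentiles 7.7 and 6.5. Between neighbours in this order, only the step from Hemgn to Alox15 exceeded the spread of the log2 ratio between libraries over all sites (SD 0.58) in both libraries, at 1.74 and 2.86. The other neighbours did not differ beyond that spread in both.

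The promoters also differed in base composition. The ratio of observed to expected CpG over 1001 bp around the TSS was 1.11 at Mxi1, 0.95 at Ube2o, 0.90 at Ulk1 and Xpo7, 0.84 at Bnip3l and 0.83 at Gabarapl2 and Foxo3. It was 0.54 at Alox15, 0.49 at Trim58 and 0.23 at Hemgn, against a median of 0.72 for genes with a promoter peak in replicate 1. The 3 genes below that median were the 3 with the weakest promoters in replicate 1. In replicate 2 Xpo7, with a signal of 2.78, lay below Trim58, with 2.96. Signal did not follow the ratio among the other genes, as Ulk1 and Xpo7 shared 0.90 with signals of 51.5 and 6.86 in replicate 1.

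Several genes have more than 1 annotated start, and the accessible start was not always the most upstream. Hemgn-201 begins at the most upstream TSS, at position 46413506 of chromosome 4, where neither library had a peak within 500 bp. The Hemgn peak lay at Hemgn-202, a protein-coding transcript that starts 9270 bp further downstream, at 46404236. Counted at the most upstream TSS alone, 9 of the 10 genes had a promoter peak in both, and Hemgn was the one lost.

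Mxi1 had 9 annotated starts, all with a peak in both libraries. Its most upstream start reached 5.01 in replicate 1 and 2.11 in replicate 2. The start cluster 18895 bp downstream, which begins other protein-coding transcripts of the gene, had 12.0 and 4.97 and was thus the stronger in both libraries. Xpo7 also had an internal protein-coding start, Xpo7-206, 58593 bp downstream of the first, with signals of 1.06 in replicate 1 and 1.41 in replicate 2. The main Xpo7 promoter was the stronger of the 2 in each library. In Foxo3, 4 of 5 starts had a peak in both, and the internal start Foxo3-205, 18389 bp downstream, had none in either.

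The windows around most of the 10 genes were denser in accessible sites than that of the median protein-coding gene. The 10 windows held 340 sites in either library and 200 in both, with 97 in replicate 1 alone and 43 in replicate 2 alone. Of the 200, 26 lay at the genes' own promoters, 47 elsewhere inside the genes and 127 in the flanks, 41 of these at promoters of neighbouring genes. Sites in both per 100 kb of window had a median of 13.5 over the 10 genes, against 5.52 over all protein-coding genes. The latter include genes without a promoter peak, and the density around genes with such a peak was not counted apart. Of the 10 windows, 9 were denser than that of the median gene, and Trim58 was the exception with 5.36 per 100 kb.

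**Figure D2:**
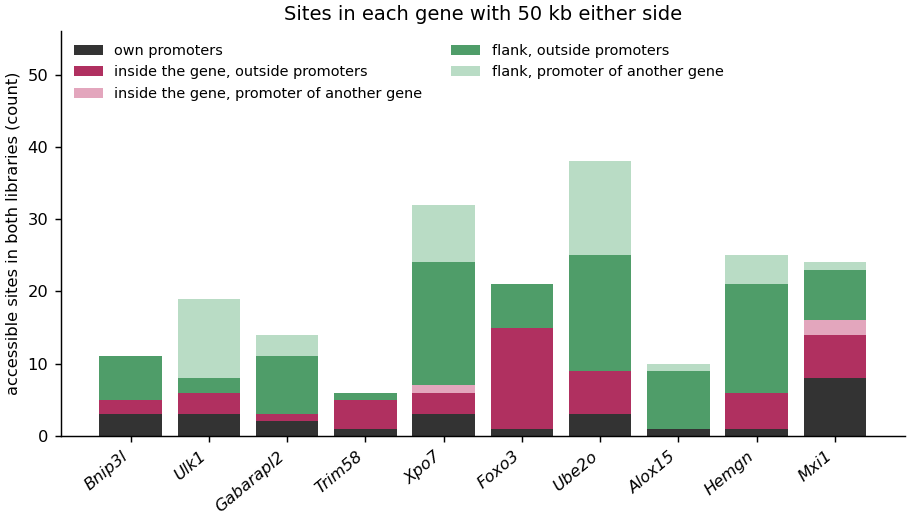
Accessible sites found in both libraries in each gene with 50 kb either side, stacked by position. Ube2o has the most sites with 38, many of them at promoters of neighbouring genes, and Foxo3 has the most inside the gene with 14.

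Bnip3l lies on chromosome 14 from 66985239 to 67008877 on the minus strand. Its window held 11 sites in both libraries, 3 at its own starts, 2 elsewhere inside the gene and 6 in the flanks. The 2 inside sites were weak, and the stronger of them had signals of 0.574 in replicate 1 and 0.536 in replicate 2. The flank site with the highest mean of both signals, whose sequence is shown above, lay at chr14:67012561-67012740, 3774 bp upstream of the TSS, with 1.26 in replicate 1 and 2.31 in replicate 2. It led the Bnip3l flanks in replicate 2 only, and a site at chr14:66958941-66959100, with 2.30 and 1.22, led them in replicate 1. The window held 8.9 sites in both per 100 kb, above the 5.52 of the median gene but below most of the 10 genes. Bnip3l thus paired a very strong promoter with few other sites relative to most of the 10 genes. It also had the most sites seen in 1 library alone relative to those in both, with 20 in replicate 1 alone and 4 in replicate 2 alone. Most of the 20 lay in a single run downstream of the gene, at chr14:66959741-66969100 around Gm9570, with signals up to 0.218. The median signal of the 20 was 0.141, against 0.431 for the sites of replicate 1 alone over the 10 genes.

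Ulk1 lies on chromosome 5 from 110784488 to 110810097 on the minus strand, among closely spaced neighbours. Of the 19 sites in both in its window, 11 lay at promoters of other genes and 6 lay at its own promoters or inside it. The strongest inside site was intronic at chr5:110808381-110808580, 1572 bp downstream of the nearest start, with signals of 7.73 in replicate 1 and 3.39 in replicate 2. Gabarapl2 lies on chromosome 8 from 111940703 to 111953612 on the plus strand. Its window held 14 sites in both, of which 1 lay inside the gene outside promoters, with signals of 1.65 in replicate 1 and 0.502 in replicate 2. The strongest Gabarapl2 flank site outside promoters lay in an intron of Tmem231, with 6.86 and 2.36.

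Trim58, on chromosome 11 from 58640465 to 58652404 on the plus strand, was small and compactly marked. It had 1 start, 4 intronic sites in both and 1 flank site, 3694 bp upstream, with signals of 3.73 in replicate 1 and 2.15 in replicate 2. The intronic site at chr11:58643501-58643700, 3136 bp downstream of the TSS, had 6.74 and 4.13. This intronic site was stronger than the Trim58 promoter in both libraries. The window held no site in replicate 1 alone and 4 in replicate 2 alone.

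Xpo7 lies on chromosome 14 from 70654246 to 70766628 on the minus strand and spans 112 kb. Its first promoter overlaps the annotation of Dok2 on the other strand, so the signal there cannot be assigned to one of the 2 genes. The gene itself held 3 sites in both outside promoters, and the strongest, in an exon at chr14:70682261-70682440, had signals of 3.86 in replicate 1 and 2.95 in replicate 2. Most of the 32 sites in both lay in the flanks, and the strongest outside promoters lay in an intron of Dmtn, a gene of the red cell membrane skeleton, with 8.55 and 4.03. The intronic Xpo7 site shown above lay at chr14:70712961-70713320, with 1.71 and 1.39. Another Xpo7 intronic site, at chr14:70745621-70745800, was the only one of the 200 windows with near-identical copies elsewhere, 72 of them at 90% identity or more, so its signals of 0.758 and 0.615 are uncertain.

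By count, and not scaled to its length of 94.9 kb, Foxo3 had the most sites inside the gene and outside promoters. It lies on chromosome 10 from 42181841 to 42276755 on the minus strand, and 14 of its 21 sites in both lay inside the gene outside promoters. The highest of these by mean signal, 2585 bp downstream of the nearest start, had signals of 3.26 in replicate 1 and 1.84 in replicate 2. In replicate 2 another intronic site, with 2.75 in replicate 1 and 2.00 in replicate 2, was the stronger. A flank site at chr10:42277621-42277860, 986 bp upstream of the nearest start, had 19.1 and 6.71. That site was more accessible than the Foxo3 promoter itself in both libraries. The Foxo3 window held 29 sites with a peak of replicate 1 and 33 with a peak of replicate 2. Those of Gabarapl2 and Trim58 also held more sites with a replicate 2 peak, although replicate 2 had fewer peaks over the genome.

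Ube2o, on chromosome 11 from 116537740 to 116581447 on the minus strand, had the densest window of the 10 genes, with 26.4 sites in both per 100 kb, above 99.0% of protein-coding genes. Of its 38 sites, 13 were promoters of neighbours, 6 lay inside the gene outside promoters and 16 in the flanks outside promoters. The strongest intronic site, at chr11:116571981-116572180, had signals of 7.00 in replicate 1 and 3.99 in replicate 2. The strongest flank site, at chr11:116592521-116592680 in an intron of Aanat, had 16.2 and 11.4. The Aanat site exceeded the Ube2o promoter in both libraries.

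Alox15, on chromosome 11 from 70344152 to 70352031 on the minus strand, had no site in both inside the gene outside its promoter. All 10 sites of the window were found in both libraries. The strongest outside promoters lay between Alox15 and its neighbours at chr11:70334581-70334760, 11025 bp from the nearest Alox15 start, with signals of 3.92 in replicate 1 and 2.03 in replicate 2. This downstream site was stronger than the Alox15 promoter in both libraries. The promoter of Alox12e, another lipoxygenase gene, lay in the same flank with 3.13 and 1.40.

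Hemgn, on chromosome 4 from 46393989 to 46413506 on the minus strand, held 25 sites in both in its window, 20.9 per 100 kb, above 97.0% of protein-coding genes. Inside the gene and outside promoters lay 5 sites, and the highest of them by mean signal had 2.51 in replicate 1 and 1.29 in replicate 2. It led in replicate 1 only, and a site with 1.95 and 1.75 led in replicate 2. The strongest flank site outside promoters, at chr4:46390561-46390740, lay 13585 bp downstream of the accessible Hemgn start, with 10.1 and 6.36. The dense Hemgn window therefore surrounded a weak promoter.

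Mxi1, on chromosome 19 from 53310518 to 53375810 on the plus strand, had 8 own promoter sites in both, the most of the 10 genes. Its strongest site inside the gene and outside promoters lay in an intron at chr19:53314241-53314420, with signals of 21.4 in replicate 1 and 13.1 in replicate 2, at percentiles 97.5 and 99.5 of all sites in both. This intronic site, whose sequence is shown above, was stronger than every promoter of the gene in both libraries. In the flank, the site outside promoters with the highest mean signal lay 54828 bp from the nearest Mxi1 start, with 4.77 and 1.52. It led in replicate 1 only, and a site at chr19:53419941-53420120, with 3.02 and 2.83, led in replicate 2.

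**Figure D3:**
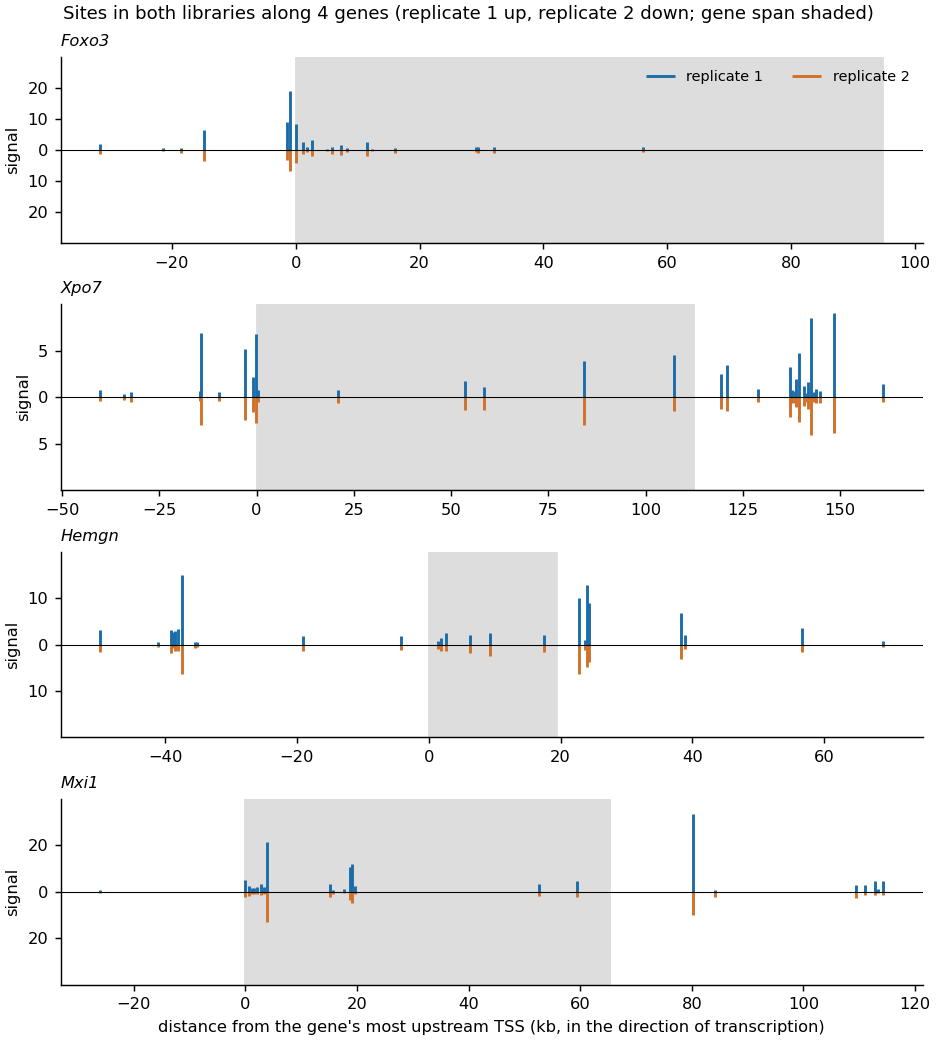
Signal of each site found in both libraries against distance in kb from the most upstream TSS, for Foxo3, Xpo7, Hemgn and Mxi1, with replicate 1 upwards, replicate 2 downwards and the gene span shaded. Foxo3 has a run of 14 sites inside the gene behind a strong upstream site, and Mxi1 has an intronic site of 21.4 and 13.1 close to its first start.

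Most sites of the 10 genes held footprints in both libraries. Of the 200 sites in both, 183 (91.5%, 95% exact interval 86.7 to 95) held a footprint in each library, against 88% of all sites in both. A footprint of one library overlapped a footprint of the other in 163 of the 200 sites, and the background share over all sites was 77.4%. The interval covers counting error only. The member sites held 789 footprints in replicate 1 and 678 in replicate 2, with a median of 4 and 3 per site against 3 and 3 over all sites in both. Only 2 sites had no footprint in either library. The footprint shares of the 10 genes thus lay near those of the genome.

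Signals were then compared between the libraries as a relative log2 ratio, which is the log2 of replicate 1 over replicate 2 minus its median of 0.84 over all sites in both. A negative value means that a site was relatively stronger in replicate 2. Over the 200 sites the median was -0.07, with 114 sites below 0 against 50% of all sites in both. The genes' own promoters had a median of 0.27, with 9 of 26 (34.6%) below 0, against 0.27 and 29.7% for all promoter sites. Measured against sites of like signal, however, own promoters had a median of -0.07 with 57.7% below 0, against 0.10 and 39.6% for all promoter sites. The standing of the promoters thus depended on the centring.

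Sites inside the genes and outside promoters leaned towards replicate 2. Their median was -0.49, and 38 of 44 (86.4%) lay below 0, against -0.14 and 60.6% for all such sites inside protein-coding genes. Measured against sites of like signal, in 10 bins, their median was -0.52 and 88.6% lay below 0, against -0.06 and 55.1% for all sites outside promoters. Measured against the median of all sites outside promoters, the share below was 65.9% (29 of 44), beside 50% of all such sites by construction. The side was the same under each centring, and the size of the excess depended on the centring. Foxo3 carried 14 of the 44 sites, 13 of them below 0, with a median of -0.67. Ube2o had 6 of 6 below 0 with a median of -0.81, Hemgn 4 of 5 with -0.68, Xpo7 3 of 3 with -0.54, and Bnip3l 2 of 2 with -0.81. In these 5 genes nearly every inside site lay on the replicate 2 side. Mxi1 had 5 of 6 below 0 but a median of -0.09, Trim58 3 of 4 with -0.22, and Ulk1 2 of 3 with -0.29. The single Gabarapl2 site, at 0.88, lay on the other side and farther from 0 than any of these medians, and Alox15 had no such site. This division of sites was made after the values were seen, and no test was run on it.

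**Figure D4:**
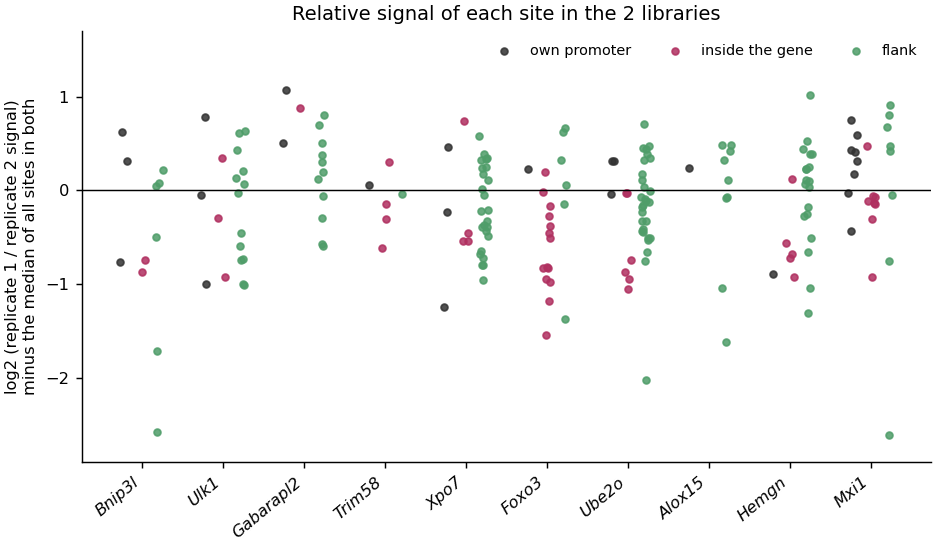
Relative log2 ratio of replicate 1 over replicate 2 for each of the 200 sites, by gene and position, with own promoters, sites inside the gene and flank sites in separate columns. Inside sites of Foxo3, Ube2o and Hemgn lie mostly below 0, and the lowest points are flank sites of Mxi1, Bnip3l and Ube2o.

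The flanks lay closer to 0 than the gene bodies. Of the 86 flank sites outside promoters, 45 (52.3%) lay below 0, with a median of -0.05, against 60.1% and -0.14 for all sites outside promoters. Over whole windows, gene and flanks together, the 130 sites of the 10 genes outside promoters had a median of -0.15, with 63.8% below 0, near the values of all sites outside promoters. Against sites of like signal that median was -0.24, beside -0.06 for all sites outside promoters. The windows of the 6 red cell marker genes, taken with their flanks in the same way, had 60 of 80 such sites below 0 and a median of -0.44. Marker windows of other cells had medians of 0.04 for B cells, 0.05 for T cells, 0.01 for macrophages, -0.09 for neutrophils, 0.11 for stroma, -0.10 for pancreas and -0.04 for liver. Against sites of like signal the red cell median was -0.34. Those of other cells were then 0.04 for B cells, -0.16 for T cells, -0.01 for macrophages and -0.16 for neutrophils. For stroma, pancreas and liver they were 0.07, -0.09 and -0.10. The red cell median was thus the lowest of the 8 marker lists under both centrings. The part of cell composition in these ratios was not tested.

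**Figure D5:**
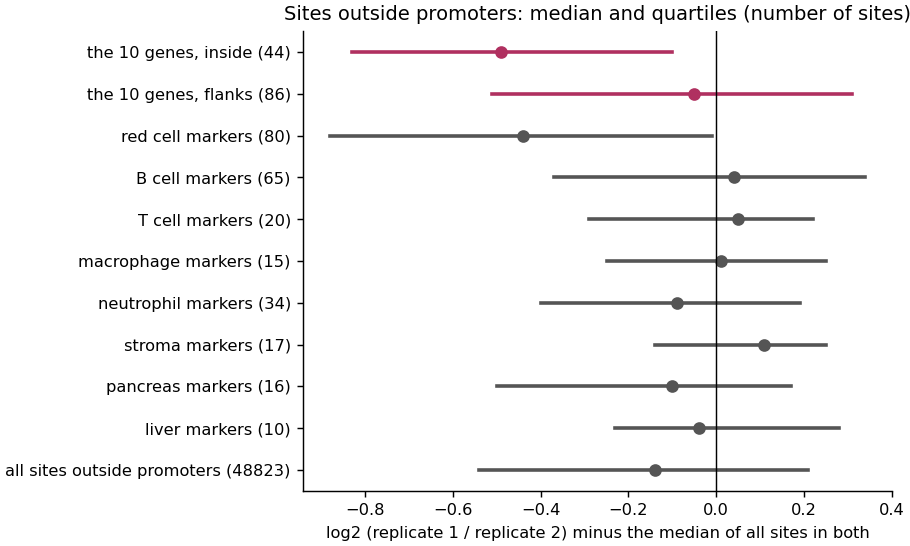
Median (point) and quartiles (line) of the relative log2 ratio of sites outside promoters, inside the 10 genes, in their flanks, in the windows of marker genes and over all such sites, with the number of sites in brackets. The sites inside the 10 genes (-0.49) and those of red cell markers (-0.44) have the lowest medians drawn. The 2 are unlike measures, because marker windows include the flanks. Taken with their flanks, the sites of the 10 genes have a median of -0.15, which is not drawn.

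A small number of sites stood far on the replicate 2 side. Of the 200 sites, 14 (7%) had a relative log2 ratio below -1, against 6.09% of all sites in both, and 2 had a ratio above 1. The lowest was the site downstream of Mxi1 at chr19:53394625-53394880, with signals of 0.713 in replicate 1 and 2.42 in replicate 2, a ratio of -2.61. A flank site of Bnip3l in an intron of Ppp2r2a followed, with 0.270 and 0.900 and a ratio of -2.58. Next came an intergenic site of Ube2o at chr11:116500981-116501660 (0.731 and 1.65, ratio -2.02) and the site upstream of Bnip3l shown above (ratio -1.72). The 2 inside sites of Foxo3 in this group, at chr10:42247181-42247400 and chr10:42260502-42260900, had ratios of -1.18 and -1.54. Measured against sites of like signal, 19 of the 200 sites (9.5%) lay below -1, against 4.27% of all sites in both. The share was thus near the background under the first centring and above it under the second, with no test of either.

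The sequence letters known to be read by erythroid and general factors were counted in the central 200 bases of each site, on both strands. AGATAA, the core read by GATA factors, was present at 15 of 130 sites of the 10 genes outside promoters (11.5%), against 10.2% of all sites in both outside promoters. It was present at 4 of 26 own promoter sites (15.4%), against 3.82% of all promoter sites. These 4 were internal starts of Bnip3l, Xpo7, Ube2o and Mxi1, and none of their 5 matches overlapped footprints of both libraries. The share of GATA matches outside promoters was thus near the background. Of the 26 matches, 6 (23.1%) overlapped footprints of both libraries, against 16.1% of matches in all sites. Among the printed windows, the Alox15 downstream site and the Xpo7 intron each hold a match in capitals. The Xpo7 match is part of a longer pattern, CTG followed after 8 free bases by AGATAA, which resembles the joint site of TAL1 and GATA1. That pattern, also added after the data were seen, was present at 3 of 130 sites of the 10 genes outside promoters (2.31%), against 0.877% of all such sites.

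A shortened form of the binding sequence of CTCF, a factor that marks chromatin boundaries, was added after the printed windows had been read. Its letters, CC and AG with 3 free bases between them followed by 2 free bases and GGC, were searched on both strands and occurred at 33 of 130 sites of the 10 genes outside promoters (25.4%), against 28% of all sites in both outside promoters. Inside the genes it occurred at 5 of 44 sites (11.4%), and the other 28 matching sites were in the flanks. Of its 47 matches in the 200 sites, 38 (80.9%) overlapped footprints of both libraries, against 80.6% of matches in all sites. Matches to this sequence were thus footprinted more often than matches to AGATAA, at the 10 genes and over all sites alike. The windows of the Trim58 intron, upstream of Bnip3l and downstream of Mxi1 each hold a match in capitals.

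The CTCF letters also occurred at 6 of the 14 sites with a ratio below -1, including the lowest site, downstream of Mxi1. Over all sites in both outside promoters, those with the CTCF letters had a median ratio of 0.00 and those without -0.20. At the 10 genes, the 33 sites with these letters had a median of -0.06 and the 97 without had -0.25. Inside the genes, the 5 sites with the letters had a median of -0.54, with 5 of 5 below 0, and the 39 without had -0.46, with 33 below 0. This division was made after the values were seen, and the part of this sequence in the ratios was not tested.

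TGACGTCA occurred at 2 of the 200 sites, the Bnip3l promoter and the Mxi1 intron, and both matches overlapped footprints of both libraries. It was present at 2.17% of all promoter sites and at 0.371% of all other sites, and 82.1% of its matches in all sites overlapped footprints of both. These letters were also added after the sequences had been read. GGGCGG was present at 15 of 26 own promoter sites (57.7%), against 49.8% of all promoter sites. CCNCACCC, a pattern read by KLF1 and related factors, was present at 20 of 130 sites outside promoters (15.4%), against 11.5%. These matches describe letters and show no binding.

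Sites seen in 1 library alone were weak. The 97 sites of replicate 1 alone had a median signal of 0.431 and reached 1.26, and 10 of them (10.3%) held bases listed below a false discovery rate of 0.05 in replicate 2. The 43 sites of replicate 2 alone had a median of 0.473 and reached 0.963, and 15 (34.9%) held such bases in replicate 1. Foxo3 had 8 sites in replicate 1 alone and 12 in replicate 2 alone, the most in replicate 2 alone among the 10 genes. Bnip3l had the most in replicate 1 alone, 20. Over the genome, 49.9% of merged sites held a peak of both libraries, beside 200 of 340 in these windows. The share of single-library sites with bases below 0.05 in the other library was not counted over the genome. The 10.3% and 34.9% thus describe these windows alone. The part of the different list lengths in these counts was not tested.

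Genes that work beside these 10, in lists likewise chosen with earlier results of these data known, were also open at their promoters. Of 105 genes in 6 lists, 102 (97.1%) had a promoter peak in both libraries, against 60.7% of protein-coding genes. All 37 genes of autophagy and mitophagy did, led by Wipi1, which binds the lipid of the forming membrane, with signals of 42.3 in replicate 1 and 15.9 in replicate 2. Atg4d, a protease of the ubiquitin-like proteins of autophagy, followed with 33.6 and 12.0. Wipi1 was the only gene of this list with a higher signal than Bnip3l in both libraries.

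All 20 genes of nuclear condensation and enucleation and all 18 of ubiquitin and proteasome function were open in both. Xpo1, the main nuclear export receptor, had signals of 27.7 in replicate 1 and 10.7 in replicate 2. Ube2h, a ubiquitin-conjugating enzyme of late red cells, had 39.3 and 20.2, and Ubb, a ubiquitin gene, had 28.9 and 9.80. The promoters of Xpo1 and Ube2h were several times stronger than those of the members Xpo7 and Ube2o.

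All 12 FOXO factors and targets and all 11 genes of the MAX network were open in both. Txnip, a thioredoxin inhibitor, had signals of 35.3 in replicate 1 and 11.0 in replicate 2, and Sod2, the mitochondrial superoxide dismutase, had 30.3 and 12.6. Mxd1, a MAX partner like MXI1, had 36.2 and 10.4, and Mga, a large MAX partner, had 23.0 and 8.47. The lipoxygenase list was the exception, with 4 of 7 genes open in both. It includes Alox5ap, which encodes a protein that activates a lipoxygenase, with signals of 1.37 in replicate 1 and 0.595 in replicate 2. Alox12e had 3.13 and 1.40 and Aloxe3 2.92 and 0.590, Alox12b and Alox8 had a promoter peak in replicate 1 alone, and Alox12 had none. The Alox15 promoter had a lower signal than those of Alox12e and Aloxe3, the 2 strongest of the list, in each library. With 0.716 in replicate 1 and 0.339 in replicate 2, it lay near Alox5, which had 0.686 and 0.377. In replicate 1 it lay above Alox12b (0.446) and Alox8 (0.398).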

How the data were processed

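DNase-seq of 2 mouse spleen libraries was analysed from deposited lists on mm10. Per the deposited README files, each list came from its own library without pooling. For the aligner and callers, names were not given in the sources used here. As deposited by the authors, the peak signal is a depth-scaled density in whole multiples of a step (0.00375 in replicate 1, 0.00419 in replicate 2, tolerance 0.05 of a step), so signals compare within a library. The false discovery rates (FDR, of the p-value or q-value kind), as deposited, lie below 0.05. The deposited footprints carry a constant 0.01, which was not used.

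The longer peak list of each library was used. Peaks overlapping by at least 1 bp were merged into sites, each with its strongest signal per library. Genes and TSSs came from GENCODE release M21. Sequences were read from the mm10 reference (RefSeq), and motif and sequence windows were centred on the strongest replicate 1 peak. Copies were searched with blastn 2.17.0 (90% identity over 80% of the window). Exact binomial (Clopper-Pearson) intervals are 95%. With 1 group of 2 libraries no test was made. Whether the libraries came from separate animals is not stated beyond their replicate numbers. Calculations used Python 3.11.15 and were tested on simulated data.

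The members and lists were chosen with earlier results of these data known. Named sites are the strongest, by the mean of both signals, at the promoters, inside the gene and in the flanks of each member, and named list genes are the 2 strongest by mean promoter signal and any with no promoter peak. Of these list genes, 1 is not reported here. Features named outside this rule, such as the sites with the lowest ratios, internal starts and single motif matches, were chosen after their values were seen. Alternatives were the shorter lists, stronger peaks, other windows, merging, overlap and centring, and leaving out a replicate or a gene.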

Additional observations from a re-analysis of the deposited data

How the results depend on the processing

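The count of 10 genes with a promoter peak in both libraries was 9 with peaks at or above the median signal (without Alox15) and at the most upstream TSS alone (without Hemgn), and 10 to 10 in single libraries. The 200 sites became 126 with a flank of 25 kb, a smaller window by construction, and ranged from 156 to 264 otherwise, with 243 to 297 in single libraries. The footprint share of 91.5% ranged up to 92.4%, with 93.5 to 97 in single libraries. The median relative ratio of -0.07 ranged from -0.18 to -0.05, and as a difference of signal percentiles it was -1.89. No value exists for it without a replicate. The 86.4% of inside sites below 0 was 65.9% against the median of sites outside promoters and 83.3% to 88.9% in the other alternatives, which included leaving out each gene. The 102 list genes ranged from 96 to 102, with 102 to 104 in single libraries. Of the site counts per gene, 11 of 60 moved by over 1.5 times, mostly with the flank. No paired analysis was possible because the 2 libraries form 1 group.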
